A study of Homo sapiens with 3 samples.

Results

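Integrins are the receptors that hold cells to the extracellular matrix, and knockouts of 10 genes of this machinery (ITGAV, ITGB5, ITGB1, ITGA5, ILK, PTK2, TLN1, LIMS1, PARVA and FERMT2) were followed in a pooled CRISPR screen. The genes were taken by name from the 20449 gene names of the library, and all 30 guides against them were among the 62610 of 62916 guides whose normalized day 0 value was at least 10. ITGAV was chosen by its low ratio of RTX over DMSO in these libraries, and the other 9 genes were named as its partner, further receptor subunits and adhesion proteins with the results of the screen known. The ratios of RTX over DMSO are therefore a description here, and the call counts given for them support nothing about ITGAV. Each comparison with day 0 shares a library with that ratio, so the ITGAV values there are not free of the choice either.

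The cells were NUGC3, an established line of human gastric cancer, carrying the pooled GeCKO knockout library. Each guide RNA of such a library sends the nuclease Cas9 to a chosen gene, which is then cut and often disrupted. The 3 groups were cells in 10 nM RTX for 14 days, cells in the solvent DMSO at day 14, and the DMSO culture at day 0, with 1 library each. RTX is not spelled out in the labels, and the series title concerns antifolate drugs. Groups follow the sample titles, because a treatment note assigns 14 days of DMSO to the day 0 group. All groups carry the same library, and no allele or agent beyond these is named.

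Each integrin is a pair of an alpha and a beta subunit that spans the membrane. Talin and kindlin bind the tail of the beta subunit and switch the receptor to its active state. Integrin-linked kinase, PINCH and parvin form a complex that joins the receptor to actin, while focal adhesion kinase carries the signal of attachment into the cell. Carcinoma cell lines that grow attached depend on this machinery to differing degrees.

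Reads of a guide in genomic DNA, taken as a share of the library, stand for the share of cells that carry it. The libraries held 17344507 reads in RTX, 18805737 reads in DMSO at day 14 and 16547572 reads at day 0, with medians of 232, 251 and 230 reads per guide. Ratios are on the log2(normalized value + 5) scale, which shrinks the ratios of thinly covered guides. A gene's score is the median of its guides past the day 0 filter, 3 for each of the 10 genes. The 20150 genes scored held 61252 guides, and the number of guides differed among them. A rule that needs all guides of a gene to have the same sign is thus not equally strict for all genes. Brackets after a guide's ratio are exact 95% Clopper-Pearson intervals of the reads, which leave out the added 5 and cover counting error only, since PCR reads without molecular identifiers are not independent molecules. Each difference compares 2 libraries and has no replicate check. The comparisons share libraries, so the ratios of a guide in different comparisons are not independent. A high DMSO value alone lowers RTX over DMSO and raises DMSO over day 0, and a low DMSO value does the reverse. The libraries hold guide reads only, with no measure of RNA, protein or cutting. Whether NUGC3 uses each of these genes, and how completely each guide removed its protein, is therefore unknown here.

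Guides without a target in the genome give the background without a knockout. The central 95% of the 991 non-targeting guides past the filter lay between -1.31 and 1.17 in RTX over DMSO, between -0.97 and 1.11 in DMSO over day 0, and between -1.01 and 1.05 in RTX over day 0. Their medians were -0.10, 0.19 and 0.11 in the same order, so scaling to them moves every ratio by that much. The sequences of the guides are not used here. In what follows, guides 1, 2 and 3 of a gene are in the order of their library numbers.

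ITGAV encodes the alpha V subunit, which pairs with several beta subunits to bind vitronectin, fibronectin and latent TGF-beta. Its guide 1 had 52 reads in RTX, 112 reads in DMSO and 158 reads at day 0. Guide 2 had 111 reads in RTX, 257 reads in DMSO and 239 reads at day 0. Guide 3 had 19 reads in RTX, 177 reads in DMSO and 49 reads at day 0. For all 3 guides the RTX library was the lowest of the 3 libraries, and for guide 3 the DMSO library stood above day 0.

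Relative to day 0, the 3 ITGAV guides lay close together in RTX and far apart in DMSO. In RTX over day 0 their log2 ratios were -1.52 (-2.09 to -1.15), -1.08 (-1.45 to -0.78) and -1.18 (-2.22 to -0.58), all below the central range of the non-targeting guides. The score was -1.18, or 0.442 times the day 0 level, with an SD of 0.23 over the guides, at rank 164 from the lowest of 20150 genes. In DMSO over day 0 the ratios were -0.63 (-1.02 to -0.30), -0.05 (-0.31 to 0.21) and 1.60 (1.23 to 2.18), with a score of -0.05 and an SD of 1.16. Without guide 1, 2 or 3 this score was 0.78, 0.49 or -0.34. Guide 3 was thus above the central range of the non-targeting guides in DMSO.

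In RTX over DMSO, the comparison that ITGAV was chosen by, the guide ratios were -0.91 (-1.47 to -0.48), -1.04 (-1.41 to -0.74) and -2.80 (-3.85 to -2.39). The score was -1.04, or 0.486 times the DMSO level, at rank 142 from the lowest. Only guide 3 lay below the central range of the non-targeting guides there, and it is also the guide whose DMSO value was high. Without guide 3 the score was -0.97, short of a log2 ratio of -1, and with guide 1 or guide 2 left out it was -1.92 or -1.85. Both comparisons that involve RTX use the same RTX library, so they are not independent of each other.

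**Figure D1:**
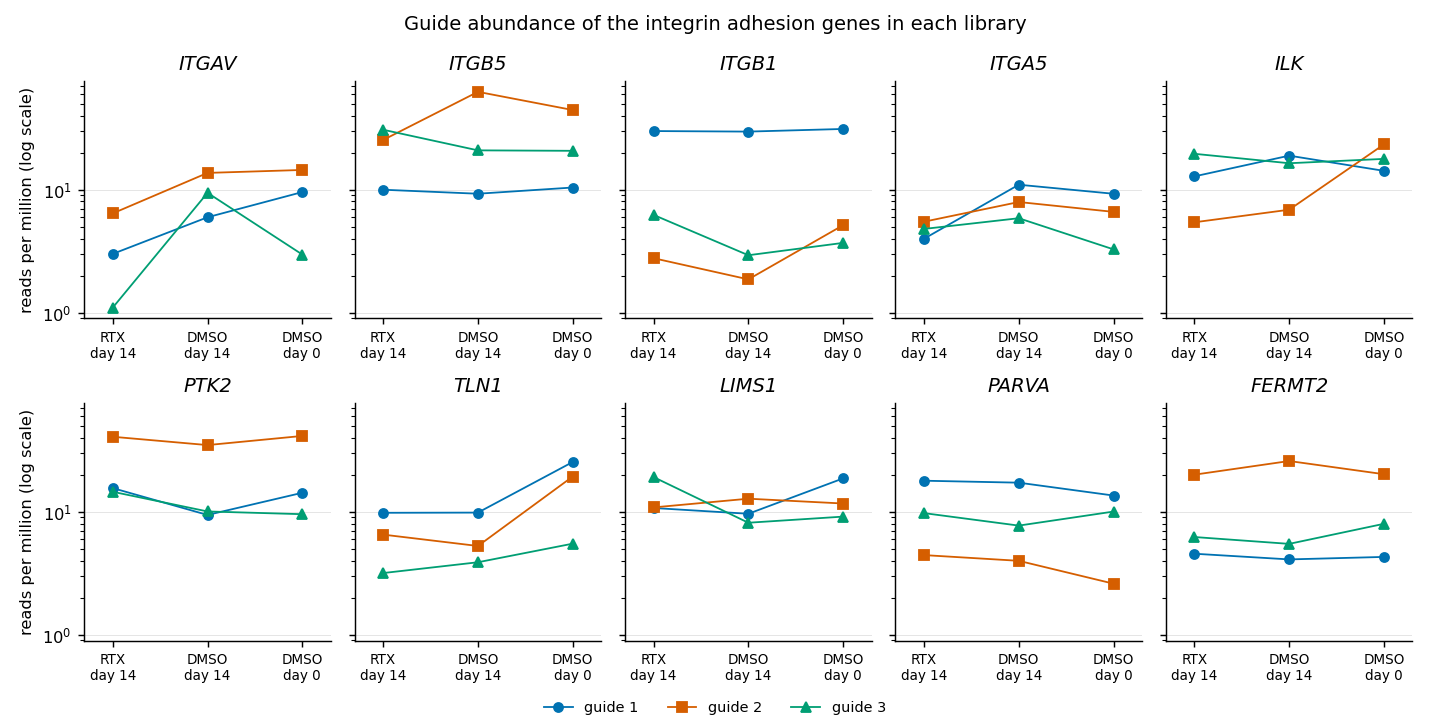
Reads of each guide as a share of its library (log scale) of the 10 genes in the RTX day 14, DMSO day 14 and DMSO day 0 libraries, with 1 library per condition and lines joining the values of a guide. The 3 ITGAV guides are lowest in RTX, whereas the 3 TLN1 guides are lower than at day 0 in both day 14 libraries.

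ITGB5 encodes the beta subunit that joins alpha V in a vitronectin receptor. Its guides had 173, 439 and 532 reads in RTX, 174, 1173 and 392 reads in DMSO, and 172, 734 and 342 reads at day 0. Guide 1 was level across the libraries, guide 2 was lowest in RTX, and guide 3 was highest in RTX. The ratios of RTX over DMSO were 0.13, -1.27 (-1.44 to -1.12) and 0.57 (0.39 to 0.77), so the intervals of guides 2 and 3 lay on opposite sides of 0. The score was 0.13 in RTX over DMSO, 0.04 in DMSO over day 0 and 0.00 in RTX over day 0. The low value of guide 2 was thus not shared by the other guides. ITGB5 was not called lower or higher in any comparison.

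ITGB1 encodes the beta subunit with the widest range of alpha partners, alpha V and alpha 5 among them. Its guides had 519, 48 and 108 reads in RTX, 557, 35 and 55 reads in DMSO, and 515, 85 and 61 reads at day 0. All 3 guides were above 0 in RTX over DMSO, at 0.04 (-0.14 to 0.21), 0.53 (-0.06 to 1.27) and 1.04 (0.63 to 1.61). All 3 were below 0 in DMSO over day 0, at -0.05, -1.32 (-2.05 to -0.86) and -0.28. The best covered guide, guide 1, was thus nearly level in all 3 libraries, and the larger ratios came from the guides with fewer reads. The score was 0.53 in RTX over DMSO, -0.28 in DMSO over day 0 and 0.00 in RTX over day 0.

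ITGA5 encodes the alpha subunit of the classical fibronectin receptor, which it forms with the product of ITGB1. Its guides had 69, 95 and 83 reads in RTX, 206, 149 and 110 reads in DMSO, and 153, 109 and 54 reads at day 0. All 3 were lower in RTX than in DMSO, at -1.38 (-1.85 to -1.04), -0.49 (-0.90 to -0.13) and -0.25 (-0.70 to 0.16), and the score of -0.49 was the second lowest of the 10 genes. Of the 3, guide 1 alone lay below the central range of the non-targeting guides there, and the interval of guide 3 held 0. In DMSO over day 0, which shares the DMSO library, all 3 ITGA5 guides were above 0, at 0.26, 0.28 and 0.81, with a score of 0.28. The guides ranged from -1.10 to 0.57 in RTX over day 0, and the score was -0.20. ITGA5 and ITGAV were the members with all 3 guides below 0 in RTX over DMSO.

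TLN1 encodes talin, which links the integrin tail to actin. Its guides had 170, 113 and 55 reads in RTX, 185, 99 and 73 reads in DMSO, and 420, 320 and 91 reads at day 0. Both day 14 libraries were below day 0 for every guide. In DMSO over day 0 the ratios were -1.32 (-1.60 to -1.09), -1.80 (-2.19 to -1.52) and -0.45 (-0.94 to -0.02), and the score of -1.32, or 0.401 times the day 0 level, stood at rank 360 from the lowest.

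The TLN1 score in RTX over day 0 was -1.29, or 0.410 times the day 0 level, at rank 114 from the lowest, with guides at -1.29, -1.47 and -0.69. The TLN1 guides were about as abundant in RTX as in DMSO. The ratios of RTX over DMSO were 0.02 (-0.29 to 0.33), 0.32 (-0.07 to 0.73) and -0.25 (-0.80 to 0.26), and the interval of each guide held 0. Guide 3, which had the fewest reads at day 0, lay inside the central range of the non-targeting guides in all 3 comparisons. Without guide 2, which lay lowest in both comparisons with day 0, the TLN1 score was -0.88 in DMSO over day 0 and -0.99 in RTX over day 0, short of a log2 ratio of -1.

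FERMT2 encodes kindlin-2, which binds the beta tail together with talin. Its guides had 79, 347 and 108 reads in RTX, 77, 486 and 103 reads in DMSO, and 71, 334 and 132 reads at day 0. No FERMT2 guide passed a log2 ratio of 1 in either direction in any comparison. The score was 0.17 in RTX over DMSO, -0.04 in DMSO over day 0 and 0.05 in RTX over day 0. FERMT2 was thus near 0 in both comparisons with day 0, where TLN1 was at -1.29 or less, and the difference between the genes was not tested.

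ILK encodes integrin-linked kinase, a scaffold of the adhesion complex. Its guides had 222, 94 and 339 reads in RTX, 355, 129 and 308 reads in DMSO, and 235, 386 and 294 reads at day 0. Guide 2 alone was far below day 0, at -1.99 (-2.39 to -1.72) in RTX and -1.70 (-2.04 to -1.45) in DMSO. The other guides lay between -0.09 and 0.43 in these comparisons. The score therefore stayed near 0, at -0.30 in RTX over DMSO, -0.09 in DMSO over day 0 and -0.09 in RTX over day 0.

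LIMS1 encodes PINCH1, the adaptor that binds ILK. Its guides had 186, 188 and 332 reads in RTX, 181, 240 and 153 reads in DMSO, and 309, 193 and 151 reads at day 0. Guide 3 was higher in RTX, at 1.23 (0.98 to 1.54) over DMSO and 1.10 (0.85 to 1.42) over day 0, above the central range of the non-targeting guides in both. Guide 1 was below day 0 in both day 14 libraries, at -0.72 in RTX and -0.91 in DMSO. The score was 0.17 in RTX over DMSO, -0.14 in DMSO over day 0 and -0.04 in RTX over day 0.

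PARVA encodes alpha-parvin, the actin-binding partner of ILK. Its guides had 310, 77 and 169 reads in RTX, 324, 75 and 145 reads in DMSO, and 224, 43 and 166 reads at day 0. All 3 were slightly above 0 in RTX over DMSO, between 0.07 and 0.35, and in RTX over day 0, between 0.02 and 0.77. The score was 0.17 in RTX over DMSO, 0.37 in DMSO over day 0 and 0.45 in RTX over day 0. Guide 2 had the fewest reads, and without it, as with a filter of 50 day 0 reads, the score in DMSO over day 0 was 0.012 and that in RTX over day 0 was 0.24. No PARVA guide passed a log2 ratio of 1.

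PTK2 encodes focal adhesion kinase. Its guides had 270, 706 and 252 reads in RTX, 177, 655 and 189 reads in DMSO, and 236, 684 and 158 reads at day 0. All 3 were higher in RTX than in DMSO, at 0.73 (0.47 to 1.03), 0.25 (0.09 to 0.40) and 0.54 (0.28 to 0.83), and each interval lay above 0. Each ratio was also inside the central range of the non-targeting guides. The score was 0.54 in RTX over DMSO, close to that of ITGB1 at 0.53, and ITGB1 was the higher of the pair with 1 added to each value or with the mean of guides. The PTK2 score was -0.22 in DMSO over day 0 and 0.18 in RTX over day 0.

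**Figure D2:**
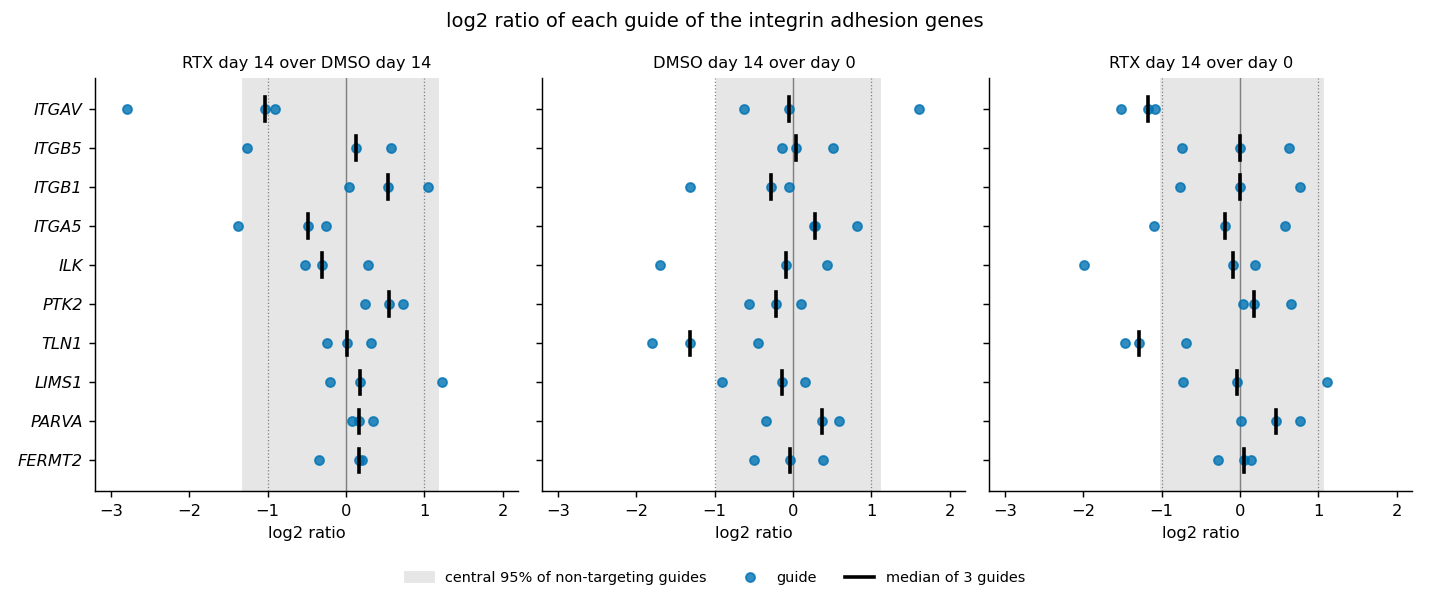
The log2 ratio of each of the 30 guides (points) and the median of 3 guides per gene (bars) in the 3 comparisons, with the central 95% of the 991 non-targeting guides shaded and dotted lines at -1 and 1. In RTX over day 0 the 3 ITGAV guides all lie left of the shaded range, and guides 1 and 2 and the median of TLN1 lie to the left of it in both comparisons with day 0.

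A gene was called lower or higher when its score was at or past a log2 ratio of 1 and all its guides had the same sign. For RTX over DMSO, 1 of the 10 genes was called lower, namely ITGAV, which was chosen by that comparison, and 0 were called higher, beside 0.462% and 1.80% of all 20150 genes. For DMSO over day 0, 1 gene was called lower, namely TLN1, and 0 higher, beside 2.31% and 0.0596%. For RTX over day 0, 2 genes were called lower, namely ITGAV and TLN1, and 0 higher, beside 0.908% and 0.481%. The RTX library is the same one that ITGAV was chosen by, so its call there is not free of that choice. The call of ITGAV in RTX over DMSO ended with 20 added to each value, where the score was -0.96, and with scaling to the non-targeting guides, where it was -0.94. Its call in RTX over day 0 ended with 20 added, at -0.99.

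As a group the 10 genes lay around 0. The median of their scores was 0.15 in RTX over DMSO, -0.07 in DMSO over day 0 and -0.02 in RTX over day 0, while the median of all genes was 0.00 in each. Below 0 were 3 members in RTX over DMSO, 7 in DMSO over day 0 and 5 in RTX over day 0. The guides of a gene had the same sign for 5, 3 and 4 of the 10 genes in the same order, beside 27.2%, 28.6% and 28.1% of all genes.

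Single guides past a log2 ratio of 1 were spread over several genes. Of the 30 guides, 4 in RTX over DMSO were at -1 or less (2 of ITGAV, 1 each of ITGB5 and ITGA5) and 2 at 1 or more (ITGB1 and LIMS1), beside 5.43% and 7.89% of all guides. The counts in DMSO over day 0 were 4 and 1, beside 7.52% and 2.32%. These low guides belonged to TLN1 (2), ILK and ITGB1, and the high guide to ITGAV. The counts in RTX over day 0 were 7 and 1, beside 5.32% and 3.18%. These low guides belonged to ITGAV (3), TLN1 (2), ITGA5 and ILK, and the high guide to LIMS1. ITGAV was chosen by the ratio of the 2 day 14 libraries, so its guides are not free of that choice in any of these counts. Of the non-targeting guides, 6.05% were at -1 or less in RTX over DMSO, 2.02% in DMSO over day 0 and 2.72% in RTX over day 0, and 4.24%, 3.53% and 3.03% were at 1 or more in the same order. Intervals for counting error lay on opposite sides of 0 within ITGB5 and ILK in RTX over DMSO, and within 4 genes in each comparison with day 0.

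The authors' deposited tables give an FDR (q-value) per guide. At an FDR under 0.05, the authors' deposited table for RTX and DMSO had 3 of the 30 guides lower and 4 higher, beside 4.30% and 13.9% of all guides. Of the 3 lower guides, 1 was of ITGAV, which this comparison chose, and without ITGAV, a count added after seeing the data, 2 of 27 guides were lower and 4 higher. The authors' deposited table of DMSO over day 0 had 4 lower and 2 higher, beside 5.87% and 9.71%. Without ITGAV, 4 of 27 guides were lower and 1 higher there. The authors' deposited table of RTX over day 0 had 6 lower and 3 higher, beside 4.06% and 10.9%. With ITGAV left out, 4 of 27 guides were lower and 3 higher in that comparison. edgeR's exact test on whole reads, with a dispersion taken from non-targeting guides, called 1 of the 30 guides lower in each comparison and 0 higher. Those were guide 3 of ITGAV in RTX over DMSO, the comparison that ITGAV was chosen by, guide 2 of TLN1 in DMSO over day 0 and guide 2 of ILK in RTX over day 0. Of all guides the edgeR test called 0.391% lower and 0.926% higher in RTX over DMSO, 2.07% and 0.129% in DMSO over day 0, and 0.664% and 0.195% in RTX over day 0. Of the 991 non-targeting guides it called 8, 6 and 9 in the same order, counting both directions.

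**Figure D3:**
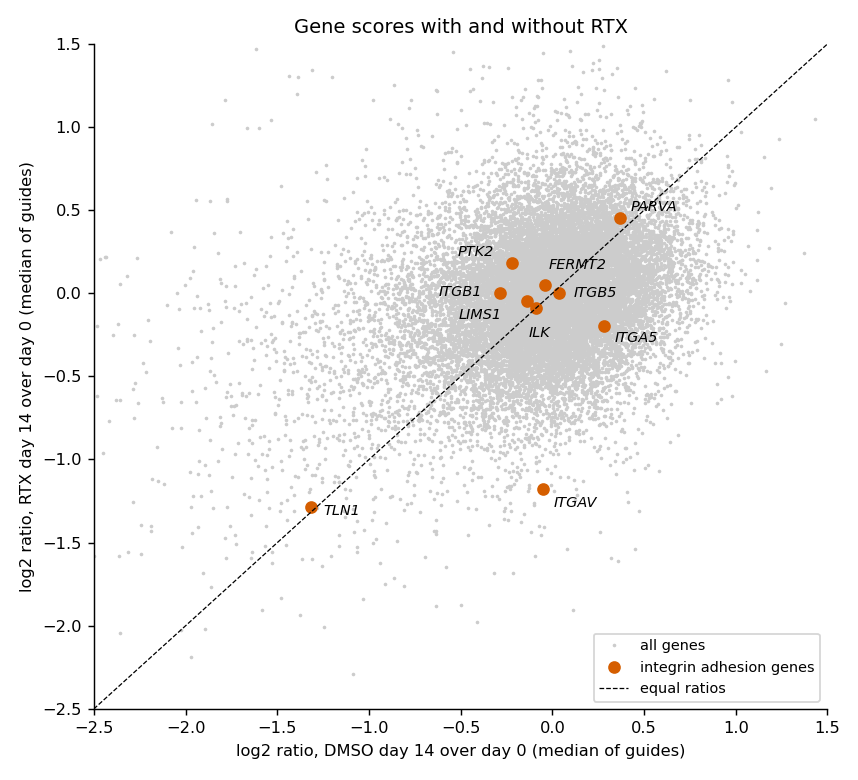
Gene scores (median log2 ratio of the guides) of RTX day 14 over day 0 against DMSO day 14 over day 0 for all genes (grey) and the 10 integrin adhesion genes (orange), with equal ratios on the dashed line and 49 genes outside the axes. TLN1 lies on the line, at -1.29 in RTX and -1.32 in DMSO, ITGAV lies below it, at -1.18 in RTX and -0.05 in DMSO, and the other members lie near the centre.

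The other beta subunits that pair with alpha V were not called in any comparison. ITGB3, the beta subunit of the classical vitronectin receptor, had a score of 0.37 in RTX over DMSO and 0.27 in RTX over day 0. ITGB6, an epithelial beta subunit that helps to release active TGF-beta, stood at -0.66 and 0.10, and ITGB8, which also binds latent TGF-beta, at 0.21 and 0.29. No member of the list of 16 further alpha subunits was called in any comparison, and their median was 0.07 in RTX over DMSO, 0.03 in DMSO over day 0 and -0.12 in RTX over day 0. Of the 6 further beta subunits, whose medians were 0.29, -0.16 and 0.18, ITGB2, the leukocyte integrin subunit, was called higher in RTX over DMSO at 1.10. Its guides ranged from 0.15 to 1.52, and it was not called in either comparison with day 0. By the same rule 1.8% of all genes were called higher in RTX over DMSO. ITGB2 lies on chromosome 21, and other genes of that chromosome were not compared with it here. Its call therefore cannot be read as particular to ITGB2 or to integrins, which was not tested.

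Paralogs and partners of the adhesion proteins also stayed mostly within a log2 ratio of 1. The 27 genes of that list had medians of 0.16 in RTX over DMSO, -0.11 in DMSO over day 0 and -0.03 in RTX over day 0. TNS3, a tensin that binds the integrin tail, was the gene called, lower at -1.19 in RTX over day 0 with guides from -1.70 to -0.04. VCL (vinculin), which binds talin under tension, had all 3 guides below 0 in DMSO over day 0, with a score of -0.85, but a score of -0.10 in RTX over day 0. PXN (paxillin) stood at -0.59 in DMSO over day 0, with guides from -0.99 to 0.68, and at -0.16 in RTX over day 0. TLN2, the second talin, stood at -0.19 in DMSO over day 0, where TLN1 was at -1.32. FERMT1 and FERMT3, the other kindlins, stood at 0.11 and -0.11 there.

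For the ILK complex, the paralogs LIMS2 (PINCH2), PARVB and PARVG stood at -0.91, 0.47 and -0.36 in RTX over DMSO, and the partner RSU1, which binds PINCH1, at -0.04. The LIMS2 guides ranged from -1.47 to 0.05, so LIMS2 was not called. PTK2B, the kinase related to PTK2, stood at -0.39 in RTX over DMSO, where PTK2 was at 0.54. Of the 23 genes of signalling below integrins, PAK2, a kinase activated by RAC1 and CDC42, was called lower in DMSO over day 0 at -1.72, with guides from -2.17 to -1.11. PAK2 stood at -0.67 in RTX over day 0 and 0.80 in RTX over DMSO, where it was not called. The medians of this list were 0.11 in RTX over DMSO, -0.11 in DMSO over day 0 and -0.14 in RTX over day 0.

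None of the 20 genes for extracellular ligands was called, with medians of -0.04, -0.02 and 0.04 in the same order. The 10 measured genes of cadherin adhesion, which joins cells to each other, had medians of 0.03, -0.03 and -0.04, again with 0 calls. Of all 20150 genes, the same rule called 0.462% lower and 1.8% higher in RTX over DMSO. The shares were 2.31% and 0.0596% in DMSO over day 0, and 0.908% and 0.481% in RTX over day 0. At such low shares, 0 calls in a list of this size says little about its genes. That holds for the further alpha subunits too, and the same shares apply to the other lists.

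**Figure D4:**
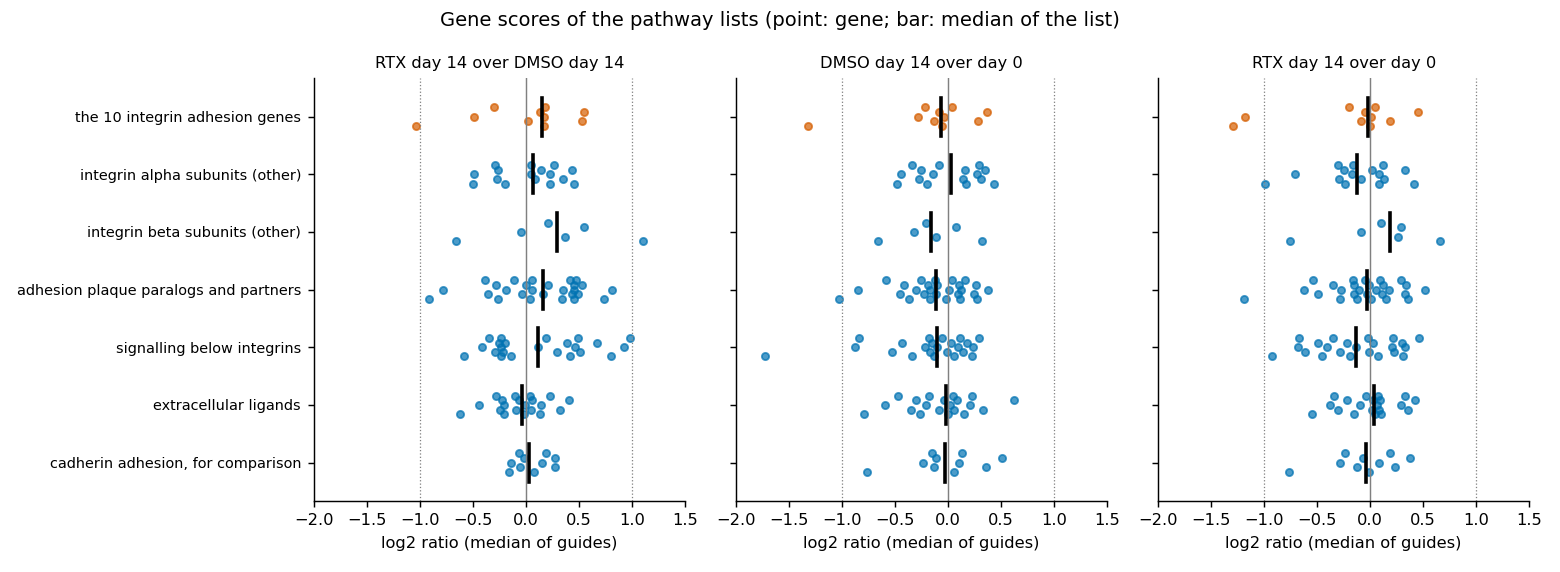
Gene scores (median log2 ratio of the guides) of the 10 integrin adhesion genes (orange) and of 6 related lists (blue) in the 3 comparisons, with a bar at the median of each list and dotted lines at -1 and 1. The medians of all lists lie within 0.29 of 0, and ITGAV, TLN1, ITGB2, TNS3 and PAK2 are the genes called in at least 1 comparison.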

How the data were processed

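Guides were counted in genomic DNA of 3 NUGC3 cultures after PCR in 2 steps, per the labels' protocols. The submitters' processing notes name MAGeCK 0.5.7 and hg19 for the 3 guide tables that the authors deposited. Matching of reads to guides is a step not given in the sources used here. The signal that the authors deposited is reads divided by 1 size factor per library, as the steps between its low values show. Dividing by the value of 1 read gave whole reads within 0.1 for at least 99.9968% of values per column. The deposited FDR columns (q-values) served as an alternative call rule.

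Ratios, scores, intervals and calls were computed with Python 3.11.15, pandas 2.3.3 and scipy 1.17.1. Genes needed 2 guides past the filter, and 23 date-like names were left out. edgeR 4.0.16 gave an alternative call per guide, with 1 dispersion from the non-targeting guides and Benjamini-Hochberg adjustment over 62610 guides at 0.05. It compares 2 libraries, not conditions. Scripts were tested on simulated data. Chromosomes are those of the RefSeq table for GRCh38.p14. The members and lists were chosen with earlier results of these data known. Named from the lists were genes called by the fold rule and 13 paralogs and partners fixed by name, of which all are given.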

Additional observations from a re-analysis of the deposited data

How the results depend on the processing

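Each comparison rests on 1 library per condition, so no replicate could be left out, and guides with few reads carry wide counting intervals. The alternatives were run on the 10 members and not on ITGB2, TNS3 and PAK2. The called scores of ITGAV and TLN1 kept their sign under all of them. Under settings not named here, counts stayed within 1.5 times and medians moved by less than the half-width of the counting interval of the members' summed reads. In RTX over DMSO the number of member genes called lower (1) was 0 with a pseudocount of 20, with scaling to the non-targeting guides or with a fold threshold of 1.5, and the number called higher (0) was 2 with a threshold of 0.5. The number of guides at -1 or less (4) was 1 with a threshold of 1.5 and 1 by edgeR. The number at 1 or more (2) was 1 with a pseudocount of 20, 6 and 0 with thresholds of 0.5 and 1.5, 4 by the authors' FDR and 0 by edgeR. The median of the members (0.15) was 0.25 when scaled to the non-targeting guides and 0.018 with the mean of guides. In DMSO over day 0 the number of genes called lower (1) was 0 with a threshold of 1.5. The number of guides at -1 or less (4) was 7 and 2 with thresholds of 0.5 and 1.5 and 1 by edgeR, and that at 1 or more (1) was 4 with 0.5, 2 by the authors' FDR and 0 by edgeR. The median (-0.07) was -0.26 when scaled to the non-targeting guides and -0.14 with the mean of guides. In RTX over day 0 the number of genes called lower (2) was 1 with a pseudocount of 20 and 0 with a threshold of 1.5. The number of guides at -1 or less (7) was 4 with a pseudocount of 20, 11 and 2 with thresholds of 0.5 and 1.5 and 1 by edgeR. The number at 1 or more (1) was 0 when scaled to the non-targeting guides, 6 and 0 with thresholds of 0.5 and 1.5, 3 by the authors' FDR and 0 by edgeR. The median (-0.02) was -0.13 when scaled to the non-targeting guides and -0.080 with equal totals. Thresholds and call rules change a count by construction. Scaling to the non-targeting guides shifts every ratio by their median, and a larger pseudocount shrinks every ratio toward 0. The cause of the other changes was not tested. Leaving out 1 guide turned the sign of 6, 6 and 10 of 30 values in RTX over DMSO, DMSO over day 0 and RTX over day 0, none of them a called score, and the other alternatives turned 2, 2 and 9 of 70 values, again none of a called score. No paired analysis was possible because each condition has 1 library.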
